A study of Caenorhabditis elegans with 2 samples.

Results

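The 39 genes that encode translation initiation and elongation factors in the nematode Caenorhabditis elegans were examined for binding of the protein ZK546.5. They were chosen by name, as the protein-coding genes of the ce11 annotation whose names start with eef-, eif-, iff-, ife- or ifg-, and they make up 39 of 19985 protein-coding genes. By name, 33 are initiation factor genes (25 eif-, 5 ife-, 2 iff- and 1 ifg-) and 6 are elongation factor genes (eef-). Chromatin immunoprecipitation with sequencing (ChIP-seq), which recovers and sequences the DNA that a protein sits on, had been done on 2 biological replicates of 1 group. The group was strain OP231, of genotype unc-119(ed3) III; wgIs231, taken as whole third-stage (L3) larvae of both sexes. Its transgene expresses ZK546.5 with GFP-FLAG fused to the C terminus, and both replicates carry this 1 insertion. No second condition and no untagged strain were analysed here. The labels number the replicates but do not say that they came from separate cultures. A call is an interval that the submitters' peak caller reported, with a summit and a signal value in the caller's own units. Each replicate had a list of 30000 calls, the pooled data had another 30000, and a thresholded set held 261 peaks, which were the 261 strongest pooled calls. Read depth is unknown because the lists hold no read counts. A gene was given the strongest call whose summit lay within 500 bp of its 5′ end, and calls were compared by their rank in a list, 1 being the strongest.

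Translation factors are proteins that work on the ribosome without being part of it. Initiation factors bring the small subunit, the initiator tRNA and the mRNA together and find the start codon. Elongation factors then bring each aminoacyl-tRNA (eEF1) and move the ribosome along by a codon (eEF2), and they are among the most abundant proteins of growing cells. The 2 iff- genes encode eIF5A, which was named an initiation factor but is known from yeast to help the ribosome through difficult stretches during elongation.

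Stretches of 100 bases around the summits of 7 members are shown so that windows under strong and moderate calls can be set beside each other. They are a selection: of the 6 members with a thresholded peak, eef-1A.1, eef-1A.2 and iff-2 are shown, and eef-2, eif-3.C and eif-6 are not. They are read on the strand of the gene, 5′ to 3′, from the RefSeq genome of build ce11. Capitals mark matches, on either strand, to any of 4 words of 6 bases, which are ACGCAG, its overlapping neighbour GACGCA, the word CGAGAC and the word ACCGTA. Summits are those of the pooled list, except for eef-1G, where replicate 2 gave the summit. The windows are chrIII:6972052-6972151 (minus strand) for eef-1A.1, chrX:7823256-7823355 (plus strand) for eef-1A.2, chrII:8561383-8561482 (minus strand) for iff-2, chrIII:7973281-7973380 (minus strand) for eef-1B.1, chrV:10965623-10965722 (plus strand) for eef-1G, chrIII:8971727-8971826 (minus strand) for eif-3.D and chrII:14795030-14795129 (plus strand) for eif-3.B.
eef-1A.1: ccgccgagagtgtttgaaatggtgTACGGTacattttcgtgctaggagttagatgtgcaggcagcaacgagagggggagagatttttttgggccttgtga
eef-1A.2: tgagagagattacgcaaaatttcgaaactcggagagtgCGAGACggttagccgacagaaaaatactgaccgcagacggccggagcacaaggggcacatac
iff-2: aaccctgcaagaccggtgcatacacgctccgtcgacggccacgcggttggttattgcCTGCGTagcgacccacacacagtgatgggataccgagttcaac
eef-1B.1: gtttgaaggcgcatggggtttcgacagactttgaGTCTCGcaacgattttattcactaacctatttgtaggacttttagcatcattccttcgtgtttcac
eef-1G: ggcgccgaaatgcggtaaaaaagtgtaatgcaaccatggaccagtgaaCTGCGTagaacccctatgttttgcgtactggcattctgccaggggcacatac
eif-3.D: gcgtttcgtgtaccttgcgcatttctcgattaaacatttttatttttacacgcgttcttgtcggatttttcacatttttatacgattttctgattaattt
eif-3.B: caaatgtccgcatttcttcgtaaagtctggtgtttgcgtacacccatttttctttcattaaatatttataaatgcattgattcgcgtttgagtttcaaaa
The first 5 each hold 1 marked word, but the words were chosen because they were frequent at the peaks of this same experiment. The windows of eif-3.D and eif-3.B hold none and are poorer in G and C, at 32.0% and 33.0% against 42.0% to 59.0% in the other 5. This contrast does not hold for every strong call, since eif-6, which is not shown, had a thresholded peak with no marked word and 27.5% G and C in the 200 bp around its summit.

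Elongation factor genes had calls in every replicate. All 6 had a call within 500 bp in both replicate lists, against 7 of 33 initiation factor genes (21.2%) and 13.4% of all protein-coding genes. Such a pair of calls need not mark the same site, since the replicate summits were over 100 bp apart at 5 of these 13 members. Among them were eef-1B.1 (170 bp) and eef-1B.2 (241 bp, at ranks 29458 and 18192). A thresholded peak was present at 3 of the 6 elongation factor genes, namely eef-2, eef-1A.1 and eef-1A.2. Over all 39 members 6 had a thresholded peak (15.4%), where the share of all protein-coding genes was 1.22%.

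The strongest call at any member was at eef-2, which encodes the factor that translocates the ribosome along the mRNA and lies on chromosome I from 9163531 to 9166952. Its signal value was 1023 in the pooled list (rank 9), 400 in replicate 1 (rank 17) and 617 in replicate 2 (rank 8). The summit was 9 bp upstream of the 5′ end in the pooled list and in replicate 1 and 11 bp upstream in replicate 2. Only 11 protein-coding genes had a stronger pooled call. The same call lay 256 bp upstream of clsp-1, which starts in the opposite direction 265 bp away, so the call cannot be given to either gene alone by position, although eef-2 was the nearer.

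The gene eef-1A.1, formerly eft-3 and well known because its promoter drives transgenes in most worm tissues, encodes eEF1A, the carrier of aminoacyl-tRNA. It lies on chromosome III from 6970026 to 6971712. Its call had a signal of 824 in the pooled list (rank 16), 345 in replicate 1 (rank 22) and 477 in replicate 2 (rank 14). Both replicates thus placed it among their 22 strongest calls. The summit lay 390 bp upstream, in intergenic sequence, and was nearer to rfc-4, a gene on the opposite strand whose 5′ end was 151 bp away. The annotated microRNA gene mir-5549 starts 17 bp from the summit.

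The second eEF1A gene, eef-1A.2 on chromosome X from 7823654 to 7825769, had a much weaker call at a similar distance. Its pooled signal was 58.1 (rank 227), with 21.2 in replicate 1 (rank 1229) and 31.3 in replicate 2 (rank 274). The pooled summit was 348 bp upstream, and no other protein-coding gene began within 500 bp of it. In both replicates eef-1A.1 outranked eef-1A.2, and neither replicate placed the call at eef-1A.2 among its strongest 261.

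The genes for the other eEF1 subunits differed widely. At eef-1B.1 (chromosome III, 7972382 to 7973386) the pooled signal was 47.7 at rank 306, just outside the thresholded set. Replicate 1 gave 18.7 (rank 2364) and replicate 2 gave 36.1 (rank 211), so it was inside the strongest 261 calls of replicate 2 and far outside those of replicate 1. Its summits did not coincide, at 111 bp downstream of the 5′ end in replicate 1, 59 bp upstream in replicate 2 and 55 bp downstream in the pooled list. The call was shared with aco-2, which starts in the opposite direction 331 bp away. At eef-1B.2 on chromosome IV there was no pooled call, and the replicate calls were near the end of the lists, at rank 29458 in replicate 1 (signal 8.55) and 18192 in replicate 2 (signal 7.99), with summits 241 bp apart.

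At eef-1G the replicate and pooled lists disagreed. The gene, on chromosome V from 10965719 to 10967922, had a signal of 25.3 at rank 471 in replicate 1 and 26.0 at rank 386 in replicate 2, with summits 81 and 46 bp upstream and 35 bp apart. The pooled list held nothing there. Its nearest summit was 5518 bp away, at rank 28907. The gene is therefore missing from counts made on the pooled list or the thresholded set, while both replicates ranked it above the calls of most initiation factor genes. The gene ctf-4 starts 180 bp away on the opposite strand and shares the call.

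**Figure D1:**
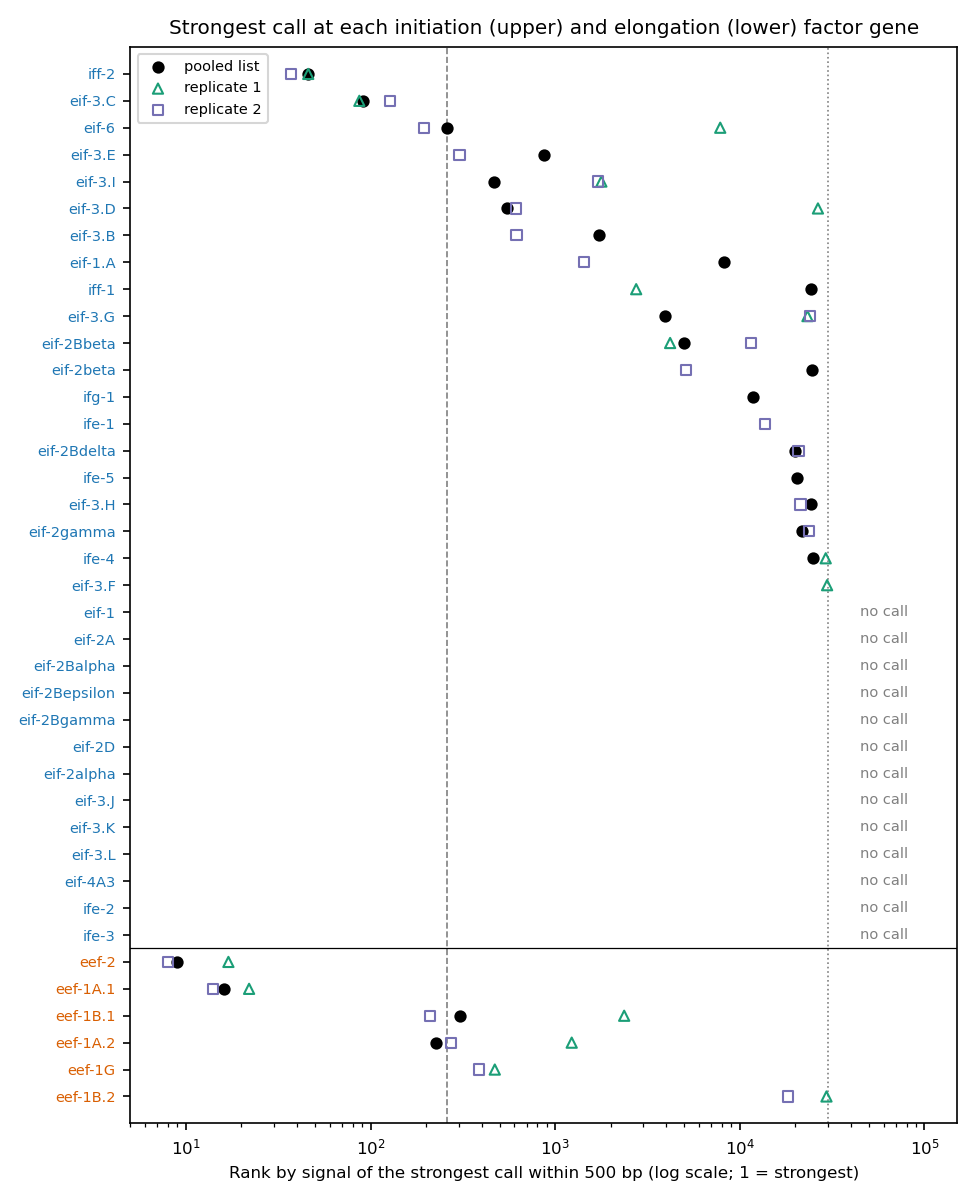
Rank by signal (x axis, log scale, 1 is the strongest) of the strongest call within 500 bp of the 5′ end of each of the 39 genes, in the pooled list (filled circles), replicate 1 (triangles) and replicate 2 (squares), with initiation factor genes above the line and elongation factor genes below it. The dashed line is rank 261, the size of the thresholded set, and the dotted line is rank 30000, the end of each list. All 6 elongation factor genes have symbols from both replicates, while 13 initiation factor genes have no call in any list.

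Among the genes named for initiation, the strongest call was at iff-2, 1 of the 2 eIF5A genes (chromosome II, 8559375 to 8561367). Its signal was 350 in the pooled list (rank 46), 146 in replicate 1 (rank 46) and 205 in replicate 2 (rank 37). The summits lay 66, 63 and 56 bp upstream of the 5′ end, and iff-2 was the only protein-coding gene within 500 bp. The other eIF5A gene, iff-1 on chromosome III, is known for its role in the germ line. It had a pooled signal of 14.5 (rank 24177) with the summit 56 bp downstream, inside its coding sequence, a call in replicate 1 at rank 2746 (signal 18.1) and none in replicate 2. The eIF5A genes were thus far apart in the pooled list.

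The genes of eIF3, the large scaffold complex that binds the small ribosomal subunit, were the largest initiation group and the one with the most calls. Only subunit genes with an eif- name were examined. Of these 11, 7 had a pooled call, against 31.2% of all protein-coding genes, and 4 were among the strongest 1000 pooled calls. Smaller groups had a similar or higher share, with a pooled call at 2 of 3 eIF2 genes and at both eIF5A genes. Among all members, 22 of 39 had a pooled call (56.4%) and 10 were among the strongest 1000 (25.6%), where 2.91% of all protein-coding genes were. By replicate, 5 members were among the strongest 1000 calls of replicate 1 (12.8%, against 2.28% of all protein-coding genes) and 11 among those of replicate 2 (28.2%, against 2.89%). Among the strongest 10000 pooled calls there were 14 members (35.9%), against 13.2% of all protein-coding genes. Outside the thresholded set 16 of 39 members had a pooled call (41.0%), against 30.0% of all protein-coding genes. Each list ends at 30000 calls and is described by the submitters as holding background as well as peaks.

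The eIF3 gene eif-3.C (chromosome I, 9976426 to 9979662) was the only gene of these 11 with a thresholded peak. Its signal was 121 in the pooled list (rank 91), 60.6 in replicate 1 (rank 87) and 49.8 in replicate 2 (rank 128). Summits lay 259, 237 and 255 bp upstream, and no other protein-coding gene began within 500 bp. Both replicates therefore gave it similar ranks.

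Next came eif-3.I, with a pooled signal of 40.2 (rank 468), 19.8 in replicate 1 (rank 1779) and 16.5 in replicate 2 (rank 1705). Its pooled summit, 116 bp upstream of eif-3.I, also lay 354 bp upstream of abtm-1. The following 3 subunit genes had a call of much stronger rank in replicate 2 than in replicate 1, or none in replicate 1. At eif-3.D the pooled signal was 38.3 (rank 549), with 21.7 at rank 613 in replicate 2 and 9.08 at rank 26489 in replicate 1, where the summit was 151 bp from that of replicate 2. At eif-3.E the pooled signal was 34.0 (rank 874), replicate 2 had 29.4 at rank 303, and replicate 1 had no call. At eif-3.B the pooled signal was 29.6 (rank 1731), replicate 2 had 21.6 at rank 618, and replicate 1 again had none. The remaining pooled calls were weaker, at eif-3.G (rank 3918) and eif-3.H (rank 24159). At eif-3.F a call of rank 29692 was present in replicate 1 alone, and eif-3.J, eif-3.K and eif-3.L had none in any list.

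The gene eif-6 encodes a factor that keeps the large ribosomal subunit from joining too early, as known from yeast and mammals. It lies on chromosome I from 12968946 to 12970272 and held the weakest thresholded peak of the members. The signal was 52.1 in the pooled list (rank 259), 38.7 in replicate 2 (rank 194) and 14.3 in replicate 1 (rank 7833). The pooled summit was 276 bp upstream of eif-6 and 390 bp upstream of the proteasome gene pbs-2, which runs the other way. The summits of replicate 1 and replicate 2 lay 345 and 343 bp upstream of eif-6. Both were outside the 100 bp around the pooled summit in which the words were sought. The pooled rank of eif-6 was thus near its rank in replicate 2 and far from its rank in replicate 1. What each replicate added to the pooled call was not tested.

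No gene for the remaining initiation factors had a thresholded peak or a call among the strongest 1000 of the pooled list. Of the genes for the 3 subunits of eIF2, which carries the initiator tRNA, eif-2beta (pooled rank 24730) and eif-2gamma (21748) had weak pooled calls and eif-2alpha had no call. Of the 5 genes for eIF2B, the exchange factor that recharges eIF2, eif-2Bbeta (rank 4992) and eif-2Bdelta (rank 19957) had pooled calls. The other 3, eif-2Balpha, eif-2Bgamma and eif-2Bepsilon, were in no list. The gene for eIF1A, eif-1.A, was at rank 8231 in the pooled list and at rank 1436 in replicate 2 (signal 17.3), and eif-1, for the partner that guards start codon choice, was in none.

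The cap-binding factors, eIF4E (ife-1 to ife-5) and its scaffold eIF4G (ifg-1), had weak calls or none. Pooled calls were at ifg-1 (rank 11725), ife-5 (rank 20433) and ife-4 (rank 24759). At ife-1 a call of rank 13687 was present in replicate 2 alone, and ife-2 and ife-3 were in no list. The genes eif-2A and eif-2D, whose mammalian counterparts bring tRNA to the ribosome by other routes, and eif-4A3, whose product belongs to the exon junction complex rather than to translation initiation proper, were also in none. In all, 13 of 39 members were in no list (33.3%), against 47.5% of all protein-coding genes, and all 13 were initiation factor genes.

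In the pooled list the classes differed more among the strong calls than over the whole list, and in each replicate list they differed more over the whole list than among its strongest 261 calls. In replicate 2 the difference was larger still among the strongest 1000 calls, at -65.2 points. A thresholded peak lay at 3 of 33 initiation factor genes (9.09%) and 3 of 6 elongation factor genes (50.0%), a difference of -40.9 percentage points. Within the strongest 1000 pooled calls the counts were 6 of 33 (18.2%) and 4 of 6 (66.7%). Over the whole pooled list they were 18 of 33 (54.5%) and 4 of 6 (66.7%), a difference of -12.1 points. Over all calls of replicate 1, 10 of 33 initiation factor genes (30.3%) and 6 of 6 elongation factor genes had a call, a difference of -69.7 points, with 31.3% for all protein-coding genes. Over all calls of replicate 2 the counts were 15 of 33 (45.5%) and 6 of 6, a difference of -54.5 points, with 31.2% for all protein-coding genes.

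With 6 elongation factor genes, 1 gene moves the share of that class by 16.7 points, and genes are not replicates, so no test was made of this difference. Among the strongest 261 calls of replicate 1 there were 2 of 33 initiation factor genes (6.06%) and 2 of 6 elongation factor genes (33.3%), a difference of -27.3 points, against 0.976% of all protein-coding genes. Among those of replicate 2 there were 3 of 33 (9.09%) and 3 of 6 (50.0%), a difference of -40.9 points, against 1.19%. In replicate 1 over all 30000 calls the initiation factor genes were thus near the share of all genes. The initiation factor genes among its strongest 261 calls were iff-2 and eif-3.C. The eIF5A genes, counted here by name as initiation factors, would give 2 of 31 initiation and 4 of 8 elongation factor genes if counted with elongation, a difference of -43.5 points.

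**Figure D2:**
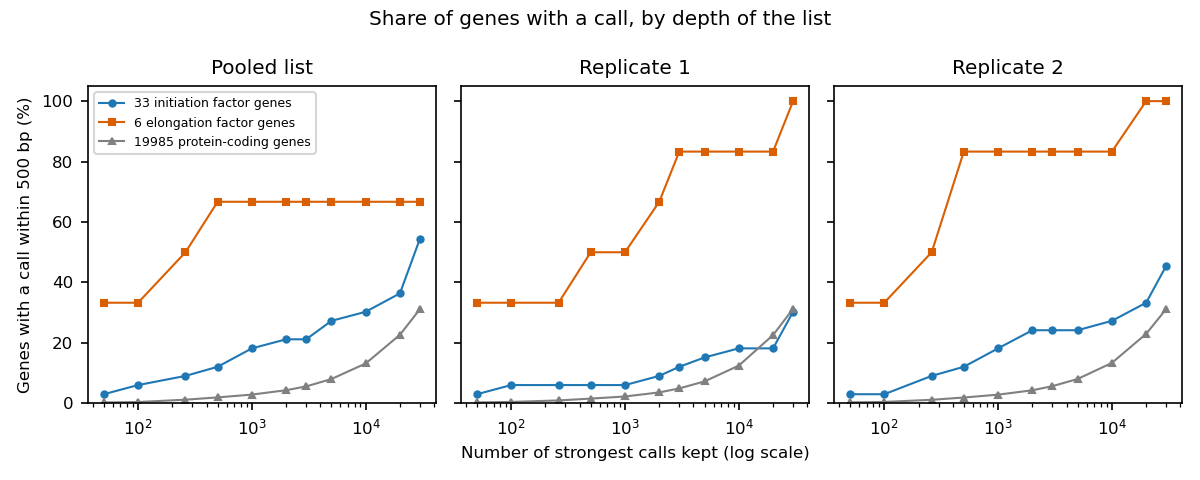
Percent of genes with a call within 500 bp (y axis) when only the strongest calls of a list are kept (x axis, log scale), for 33 initiation factor genes (circles), 6 elongation factor genes (squares) and 19985 protein-coding genes (triangles), in the pooled list, replicate 1 and replicate 2. Elongation factor genes lie above initiation factor genes at every depth shown, and in replicate 1 the initiation factor genes end at 30.3%, next to 31.3% for all protein-coding genes.

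Of the 22 members with a pooled call, 19 had the summit upstream of the 5′ end (86.4%), compared with 61.7% of the 6240 protein-coding genes with such a call and 93.4% of the 244 with a thresholded peak. The summit was downstream at eef-1B.1, iff-1 and ife-5. The counts depended on the window. Within 250 bp, 2 members had a thresholded peak, eef-2 and iff-2 (0.721% of all protein-coding genes had one), and 13 had a pooled call (17.0% of all). Within 1000 bp, 6 members had a thresholded peak (1.49% of all) and 26 had a pooled call (48.9% of all). Upstream summits had a median distance of 244 bp at members and 240 bp at all protein-coding genes. Summits were intergenic at 18 members, in a non-coding exon at 2 (eef-1B.1 and eif-2Bbeta), in an intron at 1 (ife-5) and in a coding exon at 1 (iff-1). Trans-splicing, which is common in worms, replaces the start of a transcript, and the distances are therefore measured to annotated ends and not to mapped start sites.

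**Figure D3:**
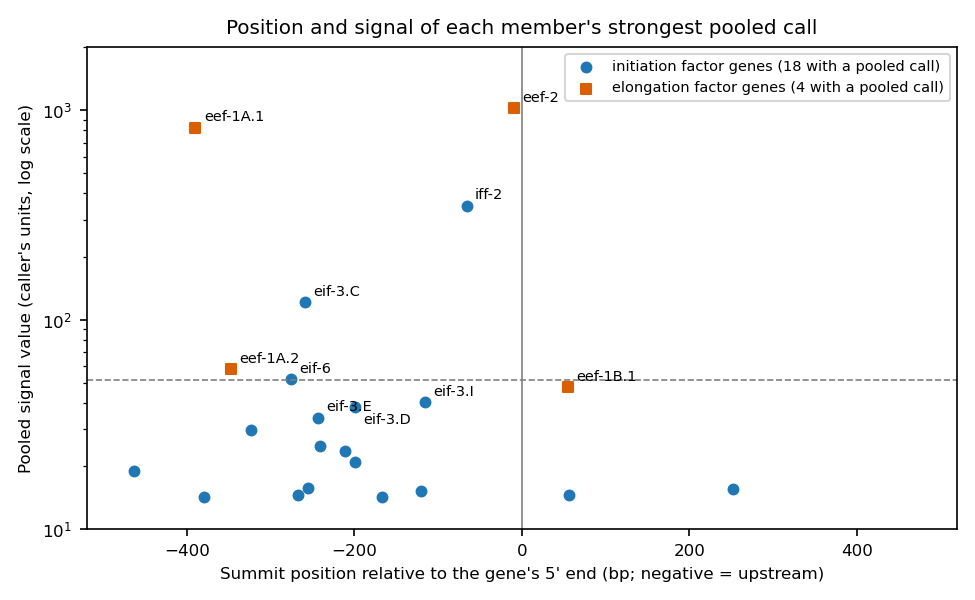
Position of the summit relative to the 5′ end (x axis, bp, negative is upstream) and pooled signal value (y axis, log scale) of the strongest pooled call at 18 initiation factor genes (circles) and 4 elongation factor genes (squares). The dashed line is the lowest signal in the thresholded set, 51.5. The 6 members above it all have an upstream summit, from 9 bp at eef-2 to 390 bp at eef-1A.1, and eef-1B.1 lies just below the line at 47.7.

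The replicates gave similar ranks to the strongest 4 members and to some of the weaker ones, and different ranks to others. A call was present in both lists at 13 members, in replicate 2 alone at 8 and in replicate 1 alone at 3. At the 6 thresholded members the replicate summits were 2 to 18 bp apart. Over the 13 members, summits lay within 50 bp of each other at 8 (61.5%), and over 100 bp apart at 5. Of the 2678 protein-coding genes with a call in both lists, 25.9% had summits within 50 bp. The 8 members were the 6 thresholded ones, eef-1G (35 bp) and eif-3.I (37 bp), so the share came mostly from strong calls. Spearman's rho between the replicate ranks was 0.82 over these 13 members and 0.34 over the 2678 genes. It is given as a description, because the members share the same 2 libraries. Neither the summit gaps nor rho were compared with genes that had calls of similar strength. Further down the lists the ranks in replicate 1 and replicate 2 were close at eef-1G (471 and 386), eif-3.I (1779 and 1705) and eif-3.G (23239 and 23875). At eif-6, eif-3.D, eef-1B.1 and eef-1A.2 the call was much weaker by rank in replicate 1 than in replicate 2, and at eif-2Bbeta it was stronger in replicate 1 (rank 4193) than in replicate 2 (rank 11527).

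**Figure D4:**
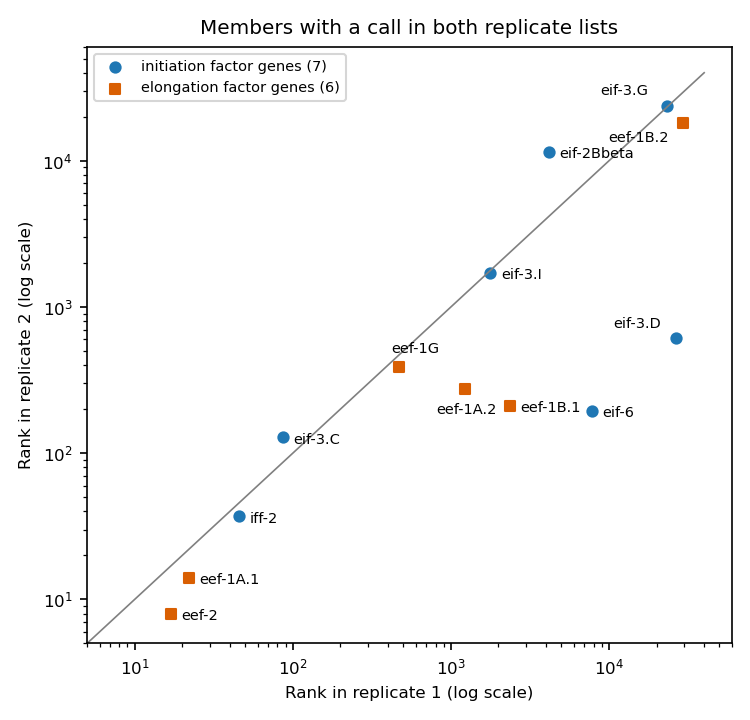
Rank in replicate 1 (x axis) and in replicate 2 (y axis), both on log scales, of the strongest call within 500 bp at the 7 initiation factor genes (circles) and 6 elongation factor genes (squares) with a call in both lists. The grey line marks equal ranks. Ranks of 8 to 128 in both lists belong to eef-2, eef-1A.1, eif-3.C and iff-2, while eif-6, eif-3.D and eef-1B.1 lie well below the line.

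Translation factor genes often start back to back with another gene. A protein-coding gene on the opposite strand started within 1000 bp upstream at 20 of 39 members (51.3%), against 17.7% of all protein-coding genes. Among such genes 4 of 20 members had a thresholded peak, namely eef-2, eef-1A.1, iff-2 and eif-6, and 3.96% of all protein-coding genes in this arrangement did. Of the 8 members that followed a same-strand gene ending within 500 bp upstream or overlapping them, 1 had a thresholded peak (eif-3.C), as did 0.929% of all such protein-coding genes. Of the 11 with neither neighbour 1 did (eef-1A.2), as did 0.534% of all such genes. A call was shared with another protein-coding gene within 500 bp at 10 of the 22 members with a pooled call, and the member was the nearest protein-coding gene at 17. The 13 members in no list were found in each arrangement. They were 6 of the 20 back to back, 2 of the 8 behind a same-strand gene and 5 of the 11 with neither. Over all protein-coding genes in these arrangements, 1516 of 3539, 1738 of 4092 and 6237 of 12354 were in no list.

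**Figure D5:**
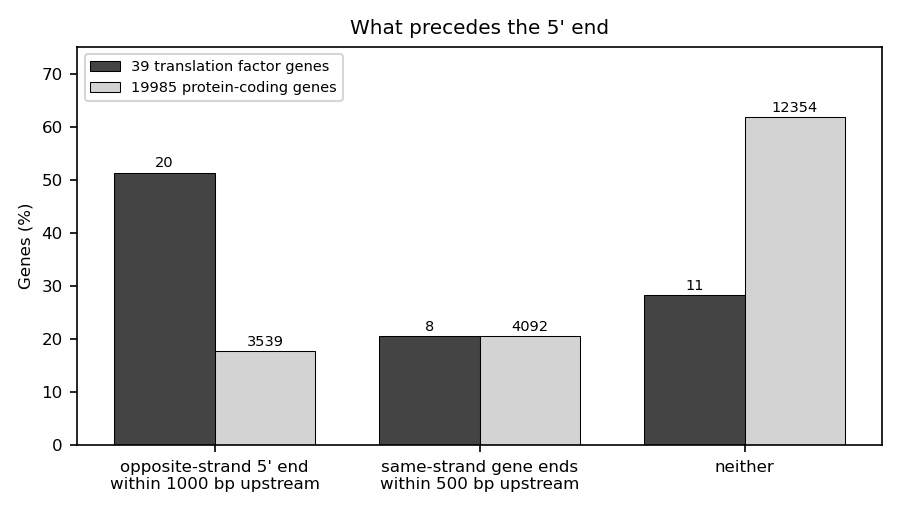
Percent of genes (y axis) by what precedes the 5′ end, for the 39 translation factor genes (dark bars) and all 19985 protein-coding genes (light bars), with the number of genes above each bar. Genes with both kinds of neighbour are counted under the first, and overlapping same-strand genes under the second. An opposite-strand 5′ end precedes 20 of 39 members and 3539 of 19985 protein-coding genes.

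The sequence at the strong calls was richer in G and C than at the weak ones. In 200 bp around the summit, mean GC content was 42.8% ± 9.29 (SD, 6 genes) at members with a thresholded peak and 33.5% ± 5.46 (SD, 16 genes) at the other members with a pooled call. These values lay near those of all 261 thresholded peaks (40.2% ± 9.81, SD) and of the other 29739 pooled calls (31.4% ± 6.87, SD). Among thresholded members the highest GC content was at eef-1A.2 (54.5%) and the lowest at eif-6 (27.5%). The highest of the other 16 was at eef-1B.1 (49.0%). Over the 300 bp from 250 bp before to 50 bp after the 5′ end, mean GC was 34.0% ± 5.91 (SD) at the 39 members and 34.8% ± 5.3 (SD) at all protein-coding genes, so the promoters of the members as a list were not richer in G and C.

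A word of the 4 marked in the sequences above lay within the 100 bp around the summit at 5 of 6 thresholded members, compared with 119 of all 261 thresholded peaks (45.6%). It was present at 3 of the 16 other members with a pooled call (18.8%), compared with 6.55% of the other pooled calls. ACCGTA was at eef-2 and eef-1A.1, ACGCAG at iff-2, GACGCA at eif-3.C and CGAGAC at eef-1A.2, while eif-6 had none. Below the threshold CGAGAC was at eef-1B.1 and eif-2gamma and ACCGTA at eif-3.H, and at eef-1G ACGCAG lay under the summit of replicate 2. By class, 4 of 18 initiation factor genes with a pooled call and 4 of 4 elongation factor genes had a word. The 4 elongation factor calls were all at pooled rank 306 or stronger, while the 18 initiation factor calls had a median rank of 6612. The comparison therefore does not separate class from call strength. At eef-1B.2, which had no pooled call, the window of replicate 2 held no word. In the 300 bp promoter windows, 13 of 39 members (33.3%) and 25.2% of all protein-coding genes held a word. These words were chosen because they were frequent at the peaks of this same experiment, so a match is a description of the sequence and shows no site.

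Other genes of translation, which lie outside the name rule, were examined in the same way. A list of 40 release, recycling, cap-binding, modifying, regulatory and organelle factor genes was matched by symbol, and 32 were found. Of these, 12 had a pooled call (37.5%, against 31.2% of all protein-coding genes) and 1 had a thresholded peak (3.12%, against 1.22% of all protein-coding genes). That gene was ifet-1, whose product binds eIF4E and represses translation in the germ line, with a signal of 104 in the pooled list (rank 108), 36.0 in replicate 1 (rank 168) and 68.5 in replicate 2 (rank 91) and a summit 489 bp upstream. Another protein-coding gene started nearer to this summit, so with calls given to the nearest gene alone the list had 0 peaks. The gene rack-1, for a protein of the small ribosomal subunit, followed at pooled rank 2112, and tufm-2, for a mitochondrial elongation factor, at rank 2444. The kinase gene efk-1, whose product phosphorylates eEF2, was at rank 15405. The eIF4A gene inf-1, the eIF5B gene iffb-1, the poly(A)-binding protein genes pab-1 and pab-2 and the release factor genes erfa-1 and erfa-3 had no pooled call.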

How the data were processed

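TF ChIP-seq calls from 2 biological replicates of 1 group were used on build ce11. Per the deposited file notes, each list came from the alignments of 1 replicate, or of both, with 1 further file in common whose role the notes do not state, and the pooled list and both replicate lists went into the thresholded set. Its name says that an irreproducible discovery rate (IDR) cut was used. Signal values, as deposited, are in units set by the caller and range differently in each list. A q-value column, as deposited, has no stated scale, so it was handled as a score and not compared. The labels' antibody field names ZK546.5 itself. Aligner, caller and IDR cut-off are not given in the sources used here. Lists on ce10 were not used.

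Gene 5′ ends came from Ensembl release 115 (46926 genes) and sequence from the RefSeq genome of the same assembly. Of all calls, 0 lay past the end of a chromosome of that genome. The 2 replicate lists held 0 identical calls. Assignment of calls was tested on simulated data. The peak positions are from pooled libraries, so values have no replicate error, and both replicate values are printed instead. The tools were pandas 2.3.3, numpy 2.4.6 and scipy 1.17.1 under Python 3.11.15, with matplotlib 3.10.9 for plots.

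The members, the lists and the words were chosen with earlier results of these data known. Named were all members with a thresholded peak or a call among the strongest 3000 pooled calls, and all eef- and iff- genes. Protein-coding genes sharing a pooled call with these members were named too. Members without a call and listed genes with a thresholded peak were also named. The other genes of the pathway list that are named were picked with their values in view. Alternatives changed the window, the position of a call, the 5′ ends, the number of calls, the replicates and the class of some genes.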

Additional observations from a re-analysis of the deposited data

How the results depend on the processing

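With a window of 250 bp instead of 500 bp, 2 members kept a thresholded peak (eef-2 and iff-2; 144 of all protein-coding genes did, 0.721%), 13 had a pooled call and 6 were among the strongest 1000 pooled calls. The difference between initiation and elongation factor genes was then -13.6 points for thresholded peaks and 0 for pooled calls. At 1000 bp it was 0 for pooled calls too. With the nearest protein-coding gene alone eef-1A.1 lost its peak to rfc-4 and the thresholded difference was -24.2 points, and at the stronger 50% of the thresholded peaks it was -27.3. In the strongest 10000 pooled calls 14 members had a call (13.2% of all protein-coding genes did) and the difference was -36.4 points. With the iff- genes as elongation factors the pooled difference was -23.4, and with a call required in both replicates, an alternative chosen after the data were seen, -78.8. To leave out a replicate, the list of the other replicate was used alone, with its strongest 261 calls in place of the thresholded set. This gave 4 to 6 members among those 261 calls and 16 to 21 with a call. Among the strongest 1000 calls there were 5 (without replicate 2) to 11. Differences ran from -40.9 to -27.3 for the strongest 261 calls and from -69.7 to -54.5 for all calls. The pathway list had 1 gene among the strongest 261. Among the strongest 261 calls of replicate 2 alone, eef-1B.1 was present and eef-1A.2 was not. Among those of replicate 1 alone, eef-1A.2 and eif-6 were absent and 4 of the 6 were kept. The pathway list had 0 peaks at 250 bp and with the nearest gene, and 3 at 1000 bp, where 1.49% of all protein-coding genes had one. The difference for peaks kept its direction under all 12 alternatives, and that for calls under all but the 2 that gave 0, among 13. The cause of these changes was not tested. No paired analysis was possible because there was 1 group. No interval for read depth could be given.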

Other observations

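Beyond the members, the window for the list of related translation genes was widened to 1000 bp, which can only keep or add peaks. Of its 32 genes, 3 had a thresholded peak, where 1.49% of all protein-coding genes did. A thresholded summit then lay 867 bp upstream of abcf-2 (rank 24, signal 634) and 681 bp upstream of larp-1 (rank 103, signal 108), a gene whose mammalian counterpart binds mRNAs for ribosomal proteins. Both distances are beyond the 500 bp used above, so these peaks were not counted. Whether another gene started nearer to these summits was not examined.

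A word of 12 bases, AGGGGCACATAC, was shared by the printed windows of eef-1A.2 and eef-1G. It was the longest that any 2 of the 7 windows had in common, the next longest being 9 bases, and it was counted after it had been seen. The windows of eef-1A.2 and eef-1G both end at its last base, so a match running past them was not looked for. The genome holds this word 6 times. It lies at X from 7823344 to 7823355, 310 bp upstream of eef-1A.2, and at V from 10965711 to 10965722, at the 5′ end of eef-1G. It also lies 2 times on chromosome II, 333 and 373 bp from the 5′ end of icd-1, which encodes a subunit of the nascent polypeptide-associated complex that meets new proteins as they leave the ribosome. The summit of rank 229 in the pooled list was within 200 bp of both copies, with rank 143 in replicate 1 and rank 346 in replicate 2. The other two copies were 1889 and 4101 bp from the nearest protein-coding 5′ end and had no call within 200 bp in any list. Without its first base the word occurs 17 times, 4 of them within 200 bp of a thresholded summit and 6 within 200 bp of a call of replicate 2. The copies at eef-1A.2 and eef-1G lie near a call by construction, because their windows were cut around summits. Both icd-1 copies count separately although they are near the same summit, and the count for replicate 2 includes a call at rank 20888. How often other words of this length lie near a call was not examined. The further thresholded copy was 296 bp from trap-3 (pooled rank 219). What these copies do was not tested.

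The absence of eef-1G from the pooled list was uncommon. Among the strongest 500 calls of each replicate, 202 calls of replicate 1 had a call of replicate 2 within 200 bp, and 2 of these (0.99%) had no pooled call within 500 bp. One lay between eef-1G and ctf-4 and the other by C07H6.2 and cux-7. Why the pooled list lacks them was not tested.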
